A study of Mus musculus with 2 samples.

Results

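The Slc25 genes encode the mitochondrial carrier family, and every gene symbol in the count tables made of Slc25a and a number was taken, 44 of the 22609 genes listed. Membership was decided by gene name. RNA came from the livers of male C57BL/6 mice and was sequenced as 2 libraries. The first is labelled wild type. The second is labelled Lrg1 knockout, from mice meant to lack the secreted glycoprotein Lrg1 in the whole body, and is called the knockout-labelled library here. Mice of both genotypes ate a diet with 45% of calories from fat for 16 weeks from 8 weeks of age. The labels do not say if a library holds RNA of 1 mouse or of a pool. With 1 library per group there was no replicate and no test, so each difference is between these libraries and not between genotypes.

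Mitochondrial carriers sit mostly in the inner mitochondrial membrane and exchange metabolites between cytosol and matrix, alternating between a state open to either side. In liver they feed ATP export, the urea cycle, glucose and fatty acid synthesis and fatty acid oxidation with their substrates. A few members lie elsewhere, such as Slc25a17 in peroxisomes and Slc25a46 in the outer mitochondrial membrane.

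Reads in genes numbered 23311906 in wild type and 18738397 in the knockout-labelled library. Lrg1 itself had 26958 and 17572 reads, and after scaling to library size it was 0.77 times as high in the latter. The label could thus not be checked by loss of the transcript, and every direction below is drawn from the library as labelled. Hepatocyte markers were abundant in both libraries. The 7 listed, albumin among them, summed to 111618 and 98888 CPM (counts scaled to library size after TMM adjustment). Their log2 ratios ran from -0.51 for Hnf4a to 1.55 for Serpina1e, 4 of 7 below 0. The summed CPM of 5 macrophage markers was 319 in wild type against 251, with 0 of 5 at 0 reads in either. Of their ratios 4 were below 0, the lowest that of Lyz2 at -1.05, and Clec4f was above 0 at 0.15. That of 5 endothelial markers was 128 and 201, again with 0 of 5 at 0 reads, and their part in the carrier values was not tested. In tissue RNA, fewer cells of a type and less RNA per cell cannot be told apart.

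Most Slc25 genes had similar levels in both libraries, and only a few stood well apart. Of the 44 genes, 39 had 50 or more reads summed over both libraries and were compared. Slc25a35, with 59 reads, was the lowest inside this limit and Slc25a2, with 11, the highest outside it. In the knockout-labelled library 2 of the 39 were 2-fold higher or more, where 1.7% of all 11411 genes with 50 or more reads were, and 1 was 2-fold lower or more, where 2.5% were (either direction 4.2%). At 1.5-fold, 3 were higher and 3 lower, against 5.85% and 6.91% of all genes. Together 15.4% of the carriers were 1.5-fold apart in either direction beside a background of 12.8%. The median log2 ratio (knockout-labelled over wild type, used throughout) was -0.11 over the carriers, with quartiles at -0.32 and 0.083. Over all compared genes it was -0.012, with quartiles at -0.22 and 0.19. Ratios were below 0 for 24 of 39 carriers (background 51.7%). The counting interval lay entirely below 0 for 16 of them (26.6%), entirely above 0 for 8 (22%), and included 0 for 15 (51.4%). Intervals are 95% intervals that cover counting error only. They narrow with read depth, and the carriers were not matched to other genes by depth, so for intervals the shares of all genes are no matched background.

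**Figure D1:**
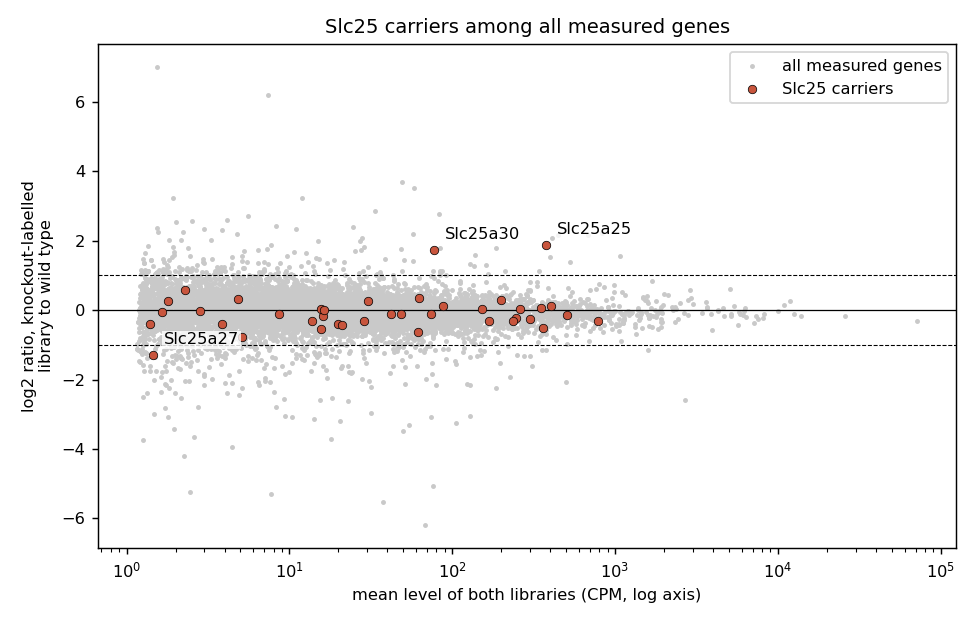
Each grey point is 1 of 11411 genes with 50 or more reads and each red point 1 of 39 Slc25 carriers. The horizontal axis is the mean CPM of both libraries on a log axis and the vertical axis the log2 ratio of the knockout-labelled library to wild type. Slc25a25 (1.88) and Slc25a30 (1.73) lie above the dashed 2-fold line and Slc25a27 (-1.30) below it.

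Slc25a25 and Slc25a30 were the carriers with the highest ratios. Slc25a25 encodes a calcium-regulated carrier that exchanges ATP-Mg for phosphate and so sets the adenine nucleotide content of the matrix. It had 3626 reads in wild type, 160 CPM (155 to 165), against 11365 in the knockout-labelled library, 589 CPM (579 to 600; exact Poisson intervals). It was 3.68-fold higher in the latter (exact interval 3.55 to 3.82), the ratio ranked 33 from the top among 11411 genes. Of its exonic bases 4.82% overlap Naif1 on the other strand, which had 46 and 41 reads. Slc25a30, a carrier related to the uncoupling proteins and first described in kidney, had 808 reads (35.7 CPM) in wild type and 2281 (118 CPM) in the other library. That was 3.32-fold higher (3.06 to 3.60), at rank 44. The rest of the family without these genes, a split made after their values were seen, summed to 4806 CPM in wild type against 4327 CPM. With them, the sums were 5002 and 5035 CPM, or 0.486% (0.483 to 0.489) and 0.518% (0.515 to 0.521) of reads in genes (Wilson intervals). In CPM the family total was thus nearly the same in both libraries, while its share of reads in genes was higher in the knockout-labelled library. These measures differ only by the TMM factors (0.972 and 1.03), which enter CPM and not the share. The makeup of the family differed.

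Promoter windows of the genes with the largest positive ratios are shown, together with that of Slc25a36, a pyrimidine nucleotide carrier, which holds the same motif as Slc25a25. Windows run from 250 bases before a RefSeq start (GRCm38.p6), and capitals mark motif matches. RefSeq gives 3 starts for Slc25a25, and the counts per gene do not show which was used. The window at the start nearest the 3′ end of the gene lies at chr2:32424017-32424316, on the minus strand, that of Slc25a30 at chr14:75786988-75787287, minus strand, and that of Slc25a36 at chr9:97110992-97111291, minus strand.
Slc25a25: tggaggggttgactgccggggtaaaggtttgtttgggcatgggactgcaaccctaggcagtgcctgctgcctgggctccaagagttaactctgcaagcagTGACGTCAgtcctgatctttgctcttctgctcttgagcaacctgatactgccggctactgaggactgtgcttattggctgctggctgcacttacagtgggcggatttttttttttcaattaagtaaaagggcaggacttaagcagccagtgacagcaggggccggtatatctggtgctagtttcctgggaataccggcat
Slc25a30: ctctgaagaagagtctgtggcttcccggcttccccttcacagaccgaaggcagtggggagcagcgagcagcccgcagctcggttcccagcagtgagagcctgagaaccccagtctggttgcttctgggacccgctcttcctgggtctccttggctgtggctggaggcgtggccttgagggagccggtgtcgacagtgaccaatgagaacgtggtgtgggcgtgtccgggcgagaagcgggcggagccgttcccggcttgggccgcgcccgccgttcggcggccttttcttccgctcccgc
Slc25a36: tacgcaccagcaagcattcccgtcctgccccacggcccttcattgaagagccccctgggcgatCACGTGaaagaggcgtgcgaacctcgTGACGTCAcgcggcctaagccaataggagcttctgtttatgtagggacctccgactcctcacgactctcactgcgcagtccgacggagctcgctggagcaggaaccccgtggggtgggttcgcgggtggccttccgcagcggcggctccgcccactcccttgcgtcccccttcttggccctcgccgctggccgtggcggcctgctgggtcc

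The capitals in Slc25a25 are TGACGTCA, the full cAMP response element, at positions -150 to -143 with the start base at 0. Those in Slc25a36 are an E-box, CACGTG, at -187 to -182 and the same cAMP response element at -161 to -154. Of 6 motifs searched on both strands, the Slc25a30 window held 0, as did the other 2 windows of Slc25a25. The full cAMP response element lay in 2 of 43 windows of 34 matched carriers, against 1.79% of 32851 windows of all genes. Its shorter core TGACG, which the full element contains in both orientations, lay in 12 of 43 windows (all genes 20.8%). The E-box lay in 8 of 43, or 18.6% (all genes 7.15%), where windows of 1 gene can overlap. The forkhead core GTAAACA (all genes 3.65%) and the D-box TTATGTAA (0.938%) lay in 0 of 43. So did the PPAR response element, taken as 2 copies of AGGTCA in 1 orientation with 1 base between (all genes 0.0396%). Slc25a36, with the same 8 bases as Slc25a25, had 38 and 31 reads and a log2 ratio of -0.061 (-0.79 to 0.66), an interval that included no difference. Of its 50-base stretches, 11.8% also occur in a pseudogene, which makes its count uncertain. Whether any of these motifs bears on a ratio was not tested.

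Levels are compared between genes per length, in TPM (read density per base, scaled to the library), with exonic lengths from GENCODE M21. The order of the carriers was close to the same in both libraries. Slc25a47, a liver-enriched carrier, was the highest at 771 TPM in wild type and 644 in the knockout-labelled library. Slc25a39, a glutathione importer, followed at 504 and 478 TPM. Slc25a10, the dicarboxylate carrier (321 and 236), and Slc25a5, an ADP/ATP exchanger of many tissues (298 and 249), came next, and which of these was higher depended on the library and on the length used. Slc25a25 went from rank 15 in wild type (53.3 TPM) to rank 6 (205 TPM), and Slc25a30 from rank 22 (20.4 TPM) to rank 15 (70.7 TPM). The level of Slc25a25 depends on the length used. Per length of its longest transcript it was 89.0 and 342 TPM, at ranks 14 and 3, and by stretches unique to the gene it was at ranks 14 and 4. Across the 39 carriers log10 TPM of the libraries had Pearson r 0.981 and Spearman rho 0.978, a description over genes that share gene lengths and are not replicates. In the knockout-labelled library the neighbour of Slc25a25, Slc25a15, was at 205 TPM, or 212 TPM per length of the longest transcript.

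**Figure D2:**
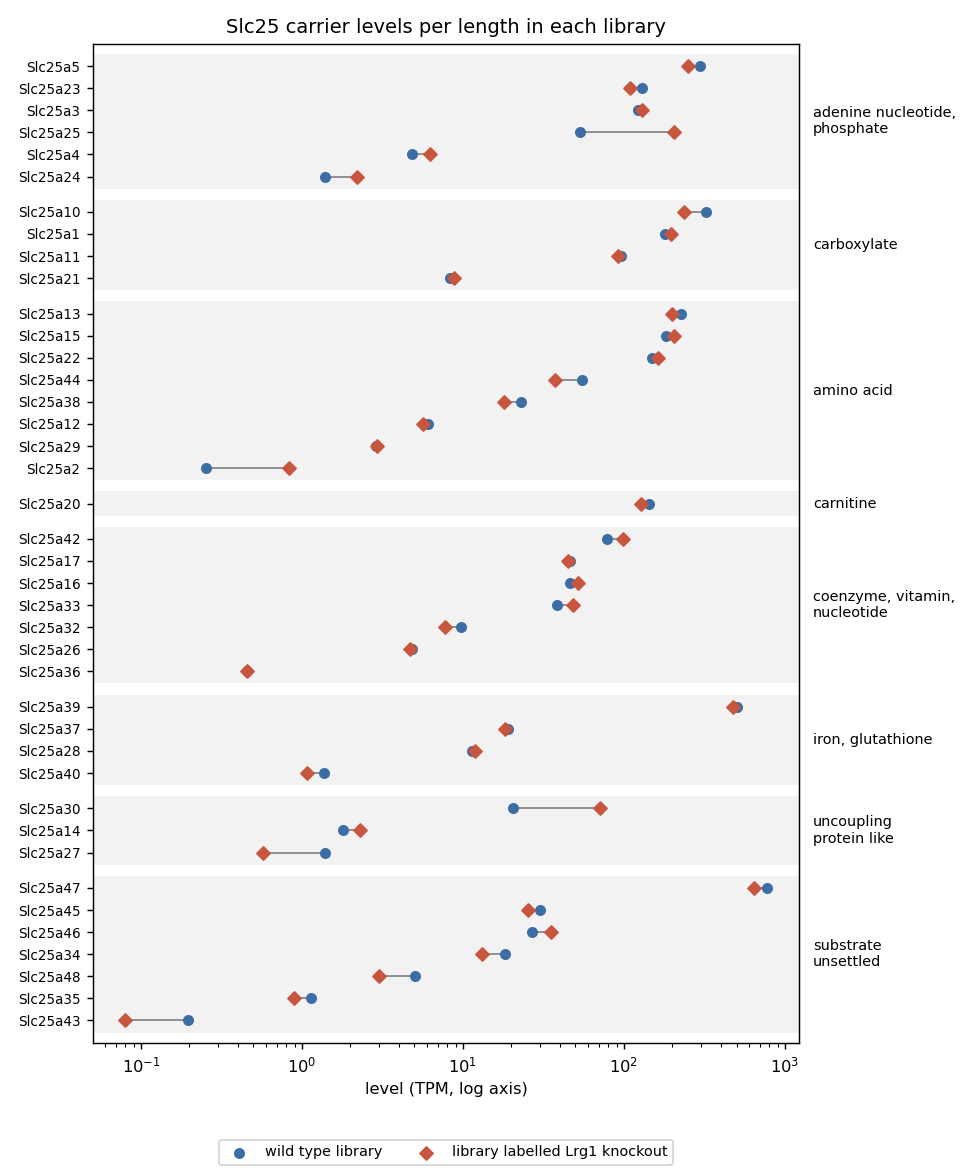
Levels of 40 Slc25 genes with reads in both libraries, in TPM on a log axis, grouped by substrate. Circles are the wild-type library and diamonds the knockout-labelled library. The longest line among abundant genes belongs to Slc25a25 (53.3 and 205 TPM), and Slc25a47 is highest in both libraries.

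The shares of family reads show the same shift. Slc25a47 took 17.6% of all Slc25 reads in wild type (17.3 to 17.8) and 14.0% (13.8 to 14.2) in the knockout-labelled one. Slc25a25 took 3.20% (3.10 to 3.30) and 11.7% (11.5 to 11.9), which placed it just behind Slc25a47 in the knockout-labelled library by read count. Slc25a10 took 8.48% (8.32 to 8.64) and 5.92% (5.77 to 6.07).

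**Figure D3:**
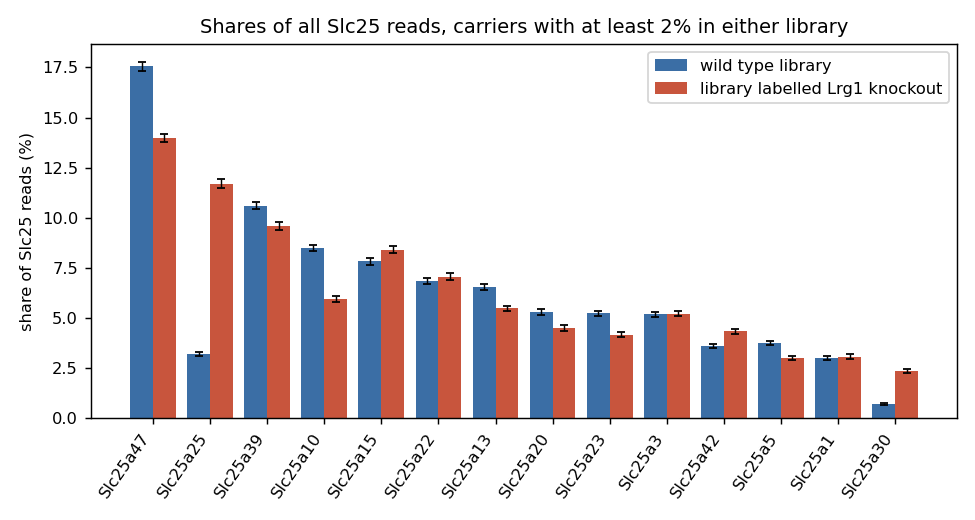
Share of all Slc25 reads, in percent, for the 14 carriers with at least 2% in either library. Blue bars are the wild-type library, red bars the knockout-labelled library, and error bars 95% Wilson intervals for counting error. Slc25a25 goes from 3.20% to 11.7% and Slc25a30 from 0.713% to 2.35%, while Slc25a47 goes from 17.6% to 14.0%.

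Among carriers of adenine nucleotides and phosphate the directions were mixed. Of 8 members 6 were compared, with 4 ratios above 0, 2 below, and a median of 0.17. Leaving out those under 200 reads brought this median to 0.020, and total-count scaling to 0.25. Besides Slc25a25, the calcium-regulated ATP-Mg carriers were Slc25a23, with 5933 wild-type reads against 4047 (262 and 210 CPM, log2 ratio -0.32), and Slc25a24, with 41 and 53 reads (0.60, -0.013 to 1.23). The interval of Slc25a24 included no difference. Per length Slc25a23 stood 2.43 times as high as Slc25a25 in wild type (2.33 to 2.53) and 0.529 times as high in the knockout-labelled library (0.510 to 0.548), so the order of these paralogs was opposite. Slc25a41, a calcium-independent relative, had 0 and 3 reads, and 0 reads in wild type allow up to 0.132 CPM, the floor of 3 counts.

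Slc25a5 exchanges matrix ATP for cytosolic ADP. It had 4243 wild-type reads against 2896 in the knockout-labelled library, 1.25-fold lower in the latter (1.19 to 1.31). The counts hold unique alignments only, and 46.6% of the 50-base stretches of its longest transcript also occur in 9 pseudogenes, so its level is understated and its ratio uncertain. Slc25a4, the ADP/ATP exchanger of heart and skeletal muscle, had 98 and 104 reads (log2 ratio 0.32, -0.094 to 0.73). Per length Slc25a5 stood 61.9 times as high as Slc25a4 in wild type against 39.8 times in the knockout-labelled library, or 128 and 82.1 times when lengths were replaced by stretches unique to each gene. The 9 muscle markers summed to 27 and 29 reads, with 2 and 3 of them at 0 reads. Slc25a31, the exchanger of male germ cells, had 1 and 0 reads. Slc25a3, which imports the phosphate used for ATP synthesis, had 5858 and 5058 reads (0.020, -0.034 to 0.075), so its interval included no difference.

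Carriers of carboxylates had 2 ratios above and 2 below 0. Slc25a10, which exchanges malate and succinate for phosphate, was the abundant member that differed most. It had 9605 reads in wild type, 424 CPM, and 5747 in the knockout-labelled library, 298 CPM, 1.42-fold lower in the latter (1.38 to 1.47). Of its exonic bases 6.6% overlap Gm11788 on the other strand, and the strand setting of the counting is not known. Slc25a1, which exports citrate for fatty acid and sterol synthesis, had 3384 and 2979 reads (0.048, -0.023 to 0.12), an interval that included no difference. Slc25a11, the oxoglutarate and malate exchanger of the malate-aspartate shuttle, had 1746 and 1379 reads (-0.11, -0.21 to -0.0054). For it the overlap, with Rnf167, is 8.92% of exonic bases. Slc25a21, which carries oxoadipate, had 348 and 304 (0.037, -0.19 to 0.26). Their median was -0.035, and 0.047 under total-count scaling. Per length Slc25a10 stood 3.38 times as high as Slc25a11 in wild type (3.21 to 3.55) and 2.56 times in the other library (2.41 to 2.71).

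Amino acid carriers were compared for 7 of 9 members, with 5 ratios below 0, 2 above and a median of -0.16. Slc25a44, a carrier of branched-chain amino acids, had 1706 wild-type reads against 939 in the knockout-labelled library, 1.55-fold lower (1.43 to 1.68). That value passed 1.5-fold under 2 of the 4 scalings, since under total count its log2 ratio was -0.55 and without the 20 most abundant genes -0.57. Slc25a38, which brings in glycine for haem synthesis, had 547 and 349 reads (-0.42, -0.61 to -0.22). Slc25a13, the aspartate and glutamate exchanger citrin that supplies the urea cycle and the malate-aspartate shuttle, had 7401 and 5312 reads (-0.25, -0.30 to -0.20).

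The ornithine carrier of the urea cycle, Slc25a15, went the other way, with 8857 and 8160 reads (391 and 423 CPM, 0.11, 0.071 to 0.16). The glutamate carrier Slc25a22 had 7769 and 6860 reads (0.053, 0.0057 to 0.100). Both values were small, at 1.08-fold and 1.04-fold. Within each pair of paralogs 1 gene held most reads in both libraries. Slc25a13 stood 37.4 and 35.3 times as high per length as Slc25a12, its relative of muscle and brain, which had 383 and 291 reads. Slc25a18, the glutamate carrier relative of Slc25a22, had 0 reads in both libraries, so Slc25a22 stood at least 826-fold and 729-fold higher per length, against a floor of 3 counts per library. Slc25a2, the paralog of Slc25a15, had 3 and 8 reads, and Slc25a15 stood 718 (246 to 3482) and 248 (126 to 575) times as high. Slc25a29, a carrier of basic amino acids, had 65 and 54 reads, and its ratio of -0.035 (-0.58 to 0.51) was above 0 under total-count scaling.

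Slc25a20, the carnitine and acylcarnitine exchanger through which fatty acids reach the oxidation enzymes of the matrix, had 6003 wild-type reads (265 CPM) against 4365 (226 CPM). It was 1.17-fold lower in the latter (1.13 to 1.22). Of its 50-base stretches 11.0% also occur in other transcripts.

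The 8 carriers of coenzymes, vitamins and other nucleotides were all compared, and 0 were 1.5-fold apart (all compared genes 12.8%). Their median was -0.082. Slc25a42, which exchanges coenzyme A for adenine nucleotides, had 4065 and 4201 reads (179 and 218 CPM), 1.21-fold higher in the knockout-labelled library (1.16 to 1.27). Slc25a33, a pyrimidine nucleotide carrier, had 626 and 640 reads (0.26, 0.10 to 0.43), although 14.9% of its exonic bases overlap an antisense gene and the labels do not state the strand setting of the counting. Slc25a16, linked to coenzyme A, had 1910 and 1762 reads (0.12, 0.022 to 0.21). These were the 3 ratios above 0.

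On the other side stood Slc25a32, a carrier of folate and FAD, with 513 and 334 reads (-0.39, -0.59 to -0.19). Intervals included no difference for the peroxisomal carrier Slc25a17 with 1145 and 907 reads (-0.10), the S-adenosylmethionine carrier Slc25a26 with 202 and 159 reads (-0.11), and Slc25a36.

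Iron and glutathione carriers differed little. Slc25a39 had 12019 wild-type reads against 9296 in the other library (-0.14, -0.18 to -0.099), and its relative Slc25a40 had 99 and 64 reads (-0.39, -0.87 to 0.071). Per length Slc25a39 stood 369 and 442 times as high as Slc25a40. The mitoferrins, which import iron for haem and iron-sulphur clusters, were Slc25a37 with 987 and 775 reads (-0.12, -0.25 to 0.021) and Slc25a28 with 370 and 316 (0.0047, -0.22 to 0.23). Both intervals included no difference. Slc25a37 is the mitoferrin of red cell precursors. Of 8 erythroid markers 6 and 5 were at 0 reads, the 4 listed globin genes among them, while the haem enzyme Alas2 had 2515 and 2608 reads. Globin genes have near-identical copies, whose reads unique counting can leave out.

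The carriers most like uncoupling proteins were Slc25a30, Slc25a14 and Slc25a27, and they spanned both ends of the family. Slc25a27, a relative of the uncoupling proteins best known from brain, had 47 wild-type reads against 16 in the knockout-labelled library, 2.50-fold lower (1.39 to 4.72). It ranked 165 from the lowest of 11411 ratios, on few reads. Slc25a14 had 37 and 38 reads (0.27, -0.42 to 0.96), an interval that included no difference.

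Of the 6 compared members whose substrate is unsettled or less certain, 5 had ratios below 0, beside 24 of 39 carriers and 51.7% of all compared genes. Their median was -0.36. Slc25a47 had 19894 reads in wild type (878 CPM, 866 to 891) and 13568 in the other library (704 CPM, 692 to 716), 1.25-fold lower (1.22 to 1.28). Slc25a48, linked to choline, had 146 and 72 reads, 1.73-fold lower (1.29 to 2.32). Slc25a34 had 420 and 246 reads (-0.54, -0.77 to -0.31) and Slc25a45 722 and 497 (-0.31, -0.47 to -0.14). Slc25a35 had 36 and 23 reads (-0.41, -1.24 to 0.38), and 31.3% of its exonic bases overlap Rangrf on the other strand. Slc25a46, which acts in the shape and fusion of mitochondria, was the member above 0, with 1257 and 1356 reads (0.34, 0.23 to 0.45). Slc25a43 had 3 and 1 reads.

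**Figure D4:**
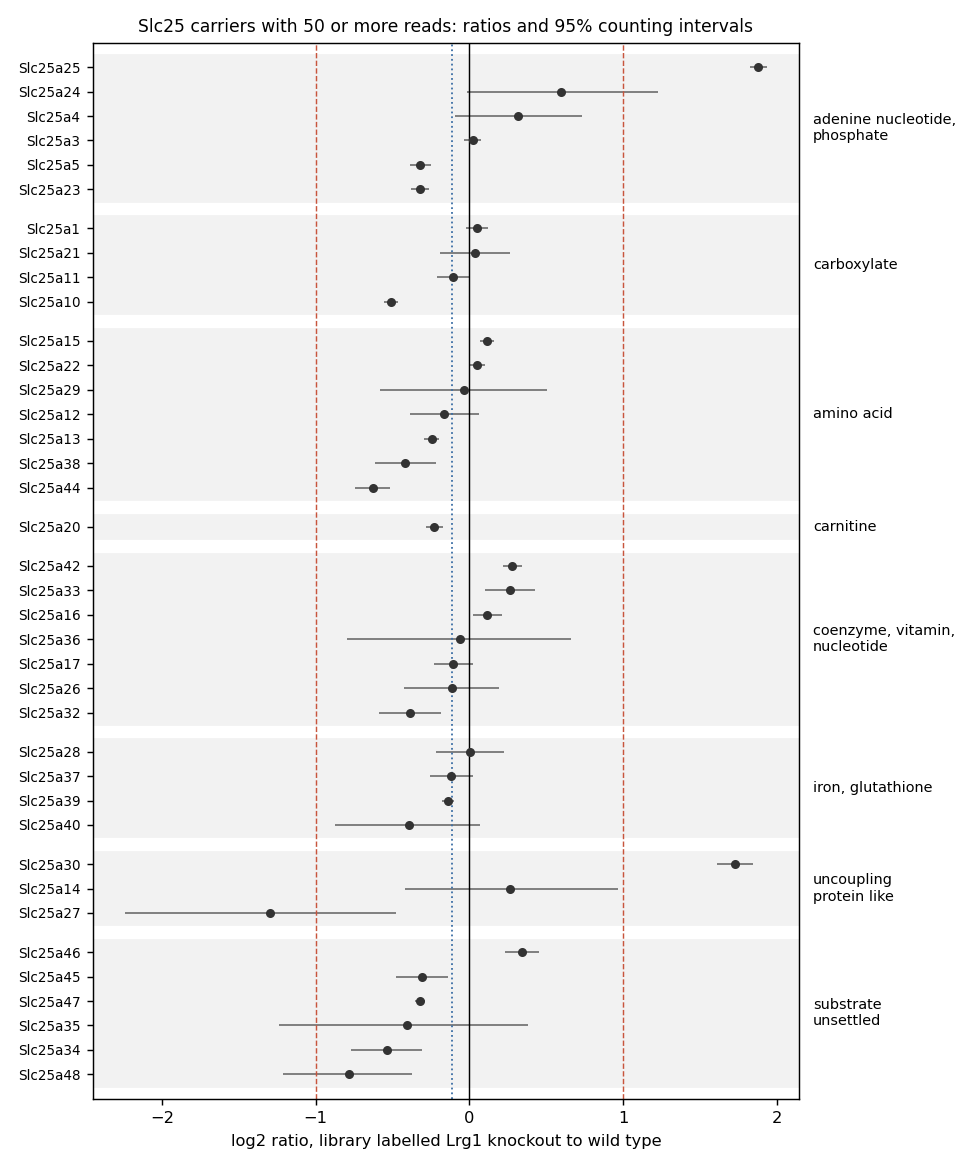
Log2 ratio of the knockout-labelled library to wild type for 38 carriers with 50 or more reads, grouped by substrate, with 95% exact intervals for counting error. Dashed lines mark 2-fold and the dotted line the carrier median of -0.11. Slc25a25 and Slc25a30 lie apart from the rest, and the wide interval of Slc25a27 (-2.24 to -0.48) reflects its 63 reads.

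Of the 4 family members listed under other symbols with 50 or more reads, 0 were 1.5-fold apart (all compared genes 12.8%). Ucp2, an uncoupling protein relative, had 1082 and 697 reads (-0.40, -0.54 to -0.26). Slc25a51, the NAD carrier listed as Mcart1, had 1373 and 1179 (0.013), Mtch1 1739 and 1411 (-0.069) and Mtch2, an outer membrane protein insertase, 2612 and 2507 (0.17). Ucp1, the uncoupling protein of brown fat, had 0 reads in both libraries and Ucp3 8 and 3.

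Genes that import the carriers or work beside them were compared as 8 lists set by role. Over all 8 lists 95 genes were compared. Of these 1 was 1.5-fold higher or more, 4 were 1.5-fold lower or more (all compared genes 5.85% and 6.91%), and the median was -0.11. The import machinery, the Tom receptors and small Tim chaperones that bring carriers to the inner membrane, had 0 of 12 genes 1.5-fold apart and a median of -0.022, which turned to 0.060 under total-count scaling. Of the 12, 7 were below 0 and 5 above. Timm9, a chaperone of carrier precursors, was at 0.50 and its partner Timm10 at -0.16 (-0.38 to 0.058). Tomm70a, the receptor that binds precursors, was at 0.25, and Tomm40, the outer membrane channel, at -0.24. Other mitochondrial membrane transport genes also had 0 of 18 past 1.5-fold (median -0.097), among them the pyruvate carrier subunits Mpc1 (354 and 237 reads, -0.35) and Mpc2 (3623 and 3294 reads, 0.095).

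Enzymes that use the same metabolites lay in a similar range. All 10 carboxylate partners had ratios below 0, where 51.7% of all compared genes did. Their median was -0.16, and 0 were past 1.5-fold (all compared genes 12.8%). Pyruvate carboxylase (Pcx), which feeds oxaloacetate to glucose synthesis, was farthest at -0.46. That all 10 lay below 0 depends on the scaling. Total-count scaling raised the median of all genes by 0.083, more than the distance of Mdh1 (-0.065) and Me1 (-0.076, -0.19 to 0.034) from 0. Of 16 amino acid partners 12 were below 0 (median -0.19). The subunit Bckdhb of branched-chain keto acid breakdown, with 1457 and 2105 reads, was the exception past 1.5-fold at 0.76. The other branched-chain genes listed, Bckdha and Bcat2, were at -0.12 (-0.17 to -0.074) and -0.12 (-0.31 to 0.075). Of the urea cycle enzymes, Otc, which uses the ornithine that Slc25a15 carries, was at 0.22, while Cps1 was at -0.54, Ass1 at -0.37, Asl at -0.12 and Arg1 at -0.38. Ornithine aminotransferase (Oat), on the same list, was at -0.34 (-0.36 to -0.32), with 48396 and 32649 reads.

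Adenine nucleotide partners had a median of -0.055, which turned to 0.027 under total-count scaling. The nucleoside diphosphate kinase Nme4 (42 and 15 reads, -1.23) and the permeability pore regulator cyclophilin D, Ppif (1086 and 613 reads, -0.59), were past 1.5-fold. Carnitine partners had a median of 0.0066 and 0 of 8 past 1.5-fold (all compared genes 12.8%). Among iron and glutathione partners (median -0.063, above 0 under total-count scaling), the lipid peroxide reductase Gpx4 was at -0.70 with 715 and 375 reads. Among coenzyme partners (median -0.12), Mthfd2 of folate metabolism was at -0.68 with 38 and 20 reads and an interval that included no difference.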

How the data were processed

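RNA was measured in 2 liver libraries. Per the labels' protocols they were made from 500 ng of total RNA by poly(A) selection with a stranded kit and sequenced as single reads of 50 bases. Per the submitters' processing notes bcl2fastq, TopHat2, HTSeq and the build mm9 were used. For versions, strand setting and annotation, nothing was given in the sources used here. What the authors deposited are raw read counts for each gene symbol, without normalization. Lines that name no gene did not enter library sizes; reads outside genes were 14.0% and 14.4% of unique alignments (wild type, then knockout-labelled).

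Counts were scaled by TMM in edgeR 4.0.16 under R 4.3.3 (factors 0.972 and 1.03). Log2 ratios used a prior count of 0.5, with exact Clopper-Pearson intervals given the sum of both counts. PCR copies were not marked by molecular identifiers, so intervals and floors (3 counts) cover counting error only. In CPM, 1 read was worth 0.0441 and 0.0519. TPM used exonic lengths from GENCODE M21 (GRCm38) for 22134 symbols, 1888 of them matched through RefSeq synonyms, which held 99.5% of reads. Promoter windows are from RefSeq (GRCm38.p6), and 34 of 44 carriers matched. Shared stretches were found by exact matches of 50 bases to transcripts of other genes that do not overlap the carrier.

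The carriers are counted in full, and 1 of them is not reported here by its own values. Of related lists, genes past 1.5-fold are named. Other genes named there were chosen after their values were seen, as were the motifs. These genes are Timm9, Timm10, Tomm70a, Tomm40, Mpc1, Mpc2, Pcx, Mdh1, Me1, Bckdha, Bcat2, Oat and the urea cycle enzymes. The carriers and lists were chosen with earlier results of these data known. The calculation was tested on simulated data, a pair of libraries with Poisson counting error only. Of 50 genes set 3-fold higher 100% passed 1.5-fold, of 50 set 1.75-fold higher 94%, and of 11191 unchanged genes 0.894%. The simulated pair held no variation between mice or library preparations, so 0.894% is no rate of false calls for the real libraries. Alternatives were other scalings (total count, DESeq2 1.42.0 size factors, total count without the 20 most abundant genes), other minimum sums (1, 10 and 200 reads), a prior count of 2, means, leaving out a member and other lengths. The rest was done in Python 3.11.15 (matplotlib 3.10.9, pandas 2.3.3, scipy 1.17.1 and numpy 2.4.6).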

Additional observations from a re-analysis of the deposited data

Results flagged for a closer look

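Lines for alignments that were not unique, which no comparison here uses, were 50.3% of lines in wild type and 58.0% in the knockout-labelled library, a large signal outside the counts per gene. Among the carriers, Slc25a5 shares most with other genes, at 46.6% of its 50-base stretches.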

How the results depend on the processing

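No paired analysis was possible because there is 1 library per group. Scaling by total count raised the median of all genes by 0.083 (log2) and that without the 20 most abundant genes by 0.059, while DESeq2 size factors moved it by 0.0024. The carrier median stayed below 0 under the scalings, filters and summaries tried, from -0.030 under total count to -0.11, with a mean of -0.056. Under total count the signs of Slc25a29 and Slc25a36 changed. Whether an interval includes 0 was read under the main scaling only, and it can change for ratios near 0. Under total count Slc25a1 went from 0.048 to 0.13, Slc25a3 from 0.020 to 0.10 and Slc25a11 from -0.11 to -0.025. With a prior count of 2 Slc25a24 was no longer 1.5-fold higher. Without a filter 5 carriers were 1.5-fold higher and 5 lower, 4 were 2-fold higher and 3 lower. From 200 reads 0 were 2-fold lower, since Slc25a27 is too shallow to enter. These counts follow from the filter by construction, and the shares of all genes under the same filters were not counted. Family members under other symbols had a median of -0.24 without a filter and from 10 reads. Under total-count scaling the medians of adenine nucleotide, carboxylate, amino acid and carnitine partners were 0.027, -0.082, -0.11 and 0.089, and without the 20 most abundant genes those of amino acid and carnitine partners were -0.13 and 0.066. These shifts come from the scaling factor, which moves all genes alike. Of the 5 highest carriers by TPM, 4 or 5 stayed among the 5 highest when length was replaced by that of the longest transcript or, an alternative chosen after seeing the data, by stretches unique to the gene. Depth limits the carriers under 100 reads summed, whose intervals are wide.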
